A study of Mus musculus with 64 samples.

Results

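The genes *Stat2*, *Stat3*, *Irf9*, *Irf1*, *Irf5*, *Irf7*, *Batf2*, *Socs1* and *Socs3*, which carry or restrain interferon signalling, were followed in retinal microglia after intravitreal (IVT) injection of AAV2. These 9 genes were taken by symbol from the 25239 genes of the batch-corrected count table, and all 9 had enough counts to be tested. The mice were C57BL/6J animals heterozygous for *Cx3cr1CreER:R26-tdTomato*, and microglia were sorted from single retinas. Every animal, naive ones included, carried the inducible Cre and the tdTomato reporter and had been given tamoxifen eye drops, followed by a washout. Cre in this line is driven by *Cx3cr1*, so that the reporter marks cells that had this promoter active at labelling, and the sort gate took cells bright for tdTomato. Treated eyes received 1e10 genome copies of an AAV2 vector that encodes no transgene. The vector carries io2, an oligonucleotide sequence that inhibits the Toll-like receptor TLR9. Treated eyes were taken at day 12 (D12) or day 28 (D28). Naive eyes were not injected, so that the effect of the injection itself and that of the vector cannot be told apart in these libraries. Mice were 3, 9 or 18 months old and of both sexes. The 62 libraries fell into 18 groups of age, sex and day, with 19 naive, 22 D12 and 21 D28 libraries. Each library came from 600 cells of 1 retina, and the fellow eye went to other assays, so that the libraries came from different animals.

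Interferons signal through Janus kinases that phosphorylate STAT proteins. Type I interferons bring STAT2 and IRF9 into the complex ISGF3, which binds the interferon-stimulated response element. Interferon gamma acts through the gamma-activated site, and STAT3 is the main transducer of IL-6 family cytokines. IRF1 and IRF7 amplify the response, IRF5 acts downstream of Toll-like receptors, and BATF2 is a basic leucine zipper partner of IRF1. SOCS1 and SOCS3 are feedback inhibitors that block Janus kinases and their receptors.

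Libraries held 1468478 to 9836173 counts (median 4188992), and 3 counts, taken as the least a library can show, corresponded to 0.305 to 2.04 CPM, the counts scaled to a fixed library total. Summed over 10 microglia markers such as *P2ry12* and *Tmem119*, all of them detected, the level was 31060 to 53900 CPM in naive libraries, 8798 to 36530 at D12 and 17330 to 46400 at D28. Marker sums of other cells differed with the day of sampling. The median sum of 9 T cell markers was 1.36 CPM in naive, 140 at D12 and 82.3 at D28 libraries (full ranges 0 to 207, 1.57 to 484 and 19.6 to 229), and that of 6 NK cell markers was 0.413, 141 and 55.4 CPM (0 to 203, 2.62 to 823 and 1.13 to 275). The sum of 8 monocyte markers had medians of 17.4, 265 and 29.1 CPM (2.35 to 127, 13.6 to 1155 and 13.3 to 92.3), with *Chil3* at 0 in naive and D28 libraries. The part of these cells in the changes described below was not tested, and in bulk libraries fewer cells of a type and less RNA per cell cannot be told apart. The sum of 7 plasmacytoid dendritic cell markers had medians of 149.8, 235.9 and 205.9 CPM (73.8 to 282, 158 to 508 and 101 to 391). Those of 8 photoreceptor markers were 1984, 864 and 1608 CPM (659.5 to 3539, 448 to 2879 and 774 to 2945), of 5 B cell markers 84.8, 48.9 and 54.3 CPM (7.43 to 117, 14.3 to 92.6 and 32.0 to 99.1) and of 5 endothelial markers 16.1, 23.6 and 52.0 CPM (1.90 to 71.5, 6.996 to 49.98 and 23.2 to 140), with *Cldn5* at 0 in naive libraries. The sums of 6 neutrophil markers, at 168, 171 and 167 CPM, and of 5 Müller glia and astrocyte markers, at 315, 343 and 376 CPM, overlapped between the days. One library labelled as an 18-month-old female at D28 had no *Xist* reads and 388 CPM of 4 Y-linked genes before batch correction, and was left out. One library labelled as a 9-month-old male at D28 had 255 CPM of *Xist* and none of the Y-linked genes, and was not in the batch-corrected table. Male replicate 4 at 18 months is titled D28 but carries a time point of D12, and was kept at D28.

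Stretches of the promoters are shown for the members whose 250 bases before the start held a response element (TTCNNTTTC) or an activated site (TTCNNNGAA) on either strand. Of the 9 members, 8 had an entry among the RefSeq promoters (GRCm38.p6), and *Batf2* had none. The response element was found for *Stat2* and *Socs1* and the activated site for *Irf1* and *Socs3*. These letters were held by 7.13% and 7.02% of all 32851 promoters, and by a promoter of 8.18% and 8.13% of all 27025 genes. Each is written 5′ to 3′ on the strand of its gene with 25 bases on either side, and capitals mark the match, or 2 overlapping matches for *Socs1*.
Stat2: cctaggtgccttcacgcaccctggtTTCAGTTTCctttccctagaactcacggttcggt
Socs1: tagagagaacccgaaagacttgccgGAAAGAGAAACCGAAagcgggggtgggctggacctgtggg
Irf1: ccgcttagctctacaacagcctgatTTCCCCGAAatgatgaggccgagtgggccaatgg
Socs3: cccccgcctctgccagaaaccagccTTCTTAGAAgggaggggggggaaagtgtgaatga

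The *Stat2* stretch is chr10:128270252-128270310 on the plus strand, with its match 221 to 213 bases before the RefSeq start, which lies upstream of the GENCODE start given below. The *Socs1* stretch is chr16:10785580-10785644 on the minus strand, with the matches 83 to 69 bases before the RefSeq start and in the reverse orientation. The *Irf1* stretch is chr11:53769899-53769957 on the plus strand, 90 to 82 bases before the RefSeq start. The *Socs3* stretch is chr11:117969487-117969545 on the minus strand, 154 to 146 bases before the RefSeq start and within the GENCODE span of the gene given below. In GENCODE on GRCm38, *Stat2* spans chr10:128270559-128292849, *Stat3* chr11:100885098-100939540, *Irf9* chr14:55603571-55610030, *Irf1* chr11:53770014-53778374, *Irf5* chr6:29526625-29541871, *Irf7* chr7:141262706-141266481, *Batf2* chr19:6140983-6172476, *Socs1* chr16:10782240-10785536 and *Socs3* chr11:117966079-117970047. No promoter listed for *Stat3*, *Irf9*, *Irf5* or *Irf7* held either run of letters in this window.

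**Figure D1:**
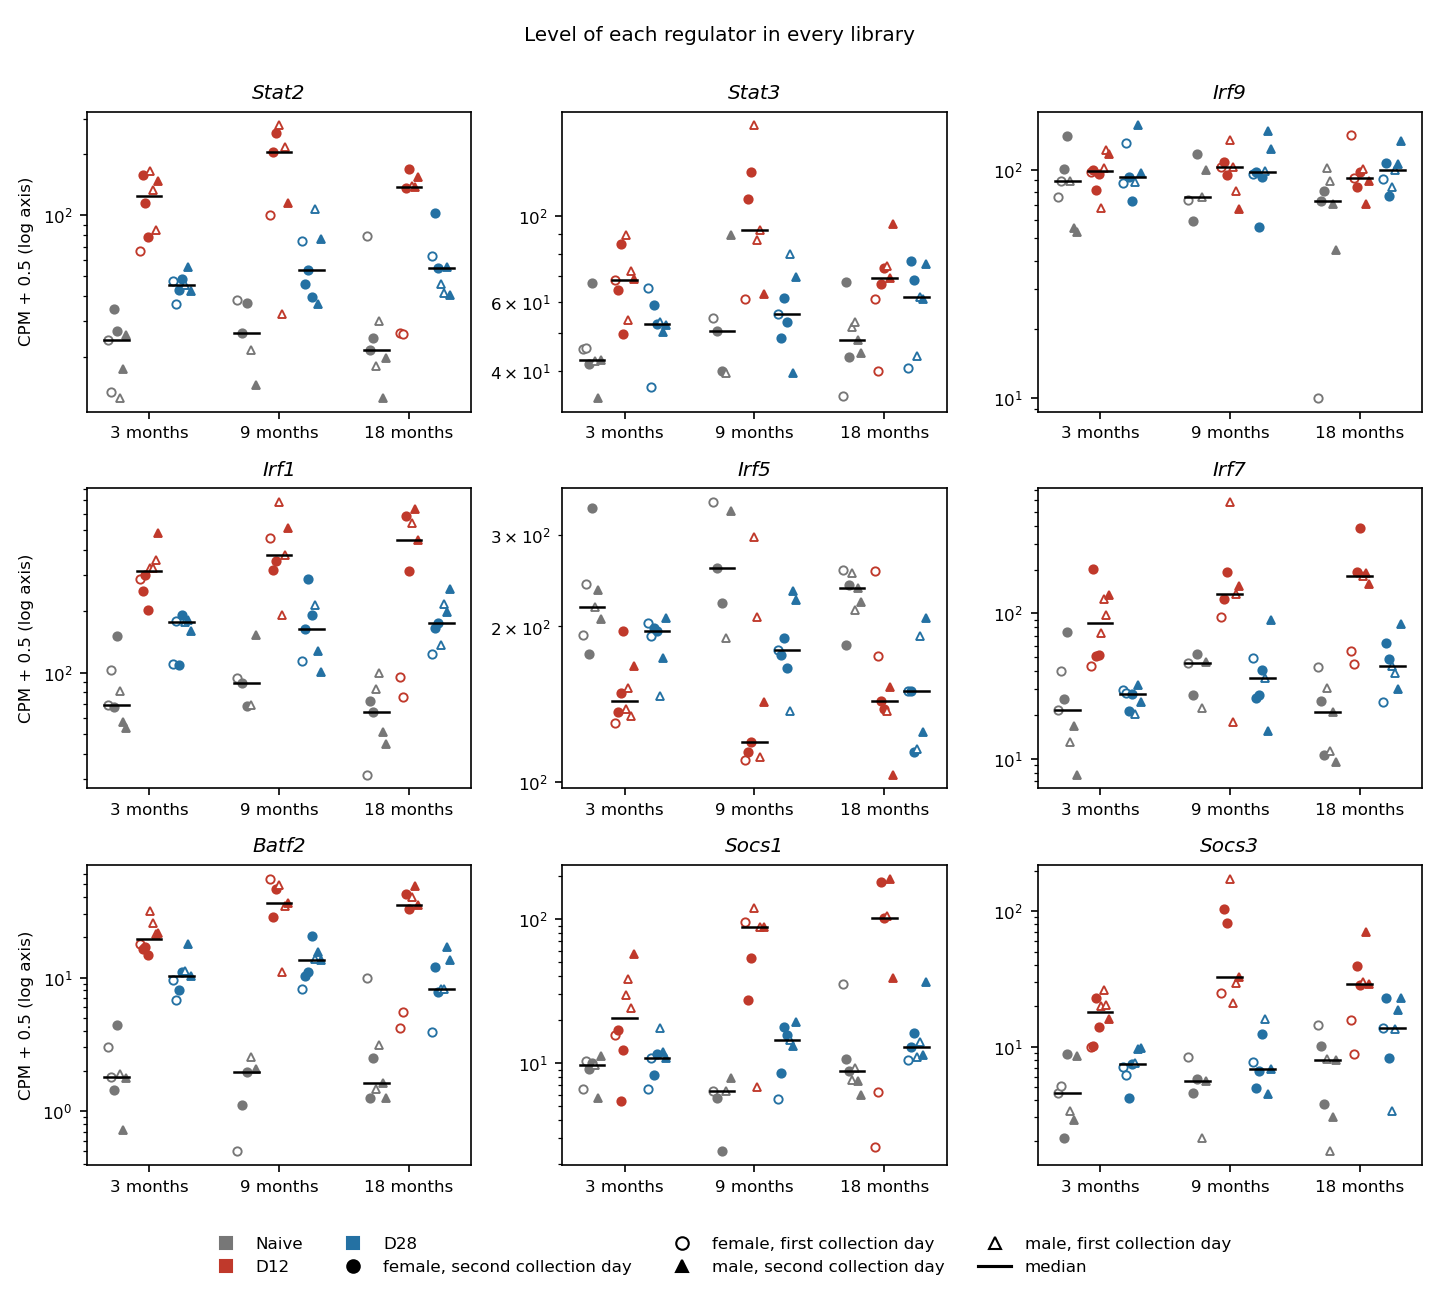
Level of each of the 9 genes in every library, as CPM + 0.5 on a log axis, by age (x axis) and day (colour). Circles are females, triangles males, open symbols the first and filled symbols the second collection day, and bars the median of the group; *Batf2* at 3 months lay between 0.217 and 3.90 CPM in naive and between 14.3 and 30.8 CPM in D12 libraries.

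The first question was which of these regulators changed at the peak of inflammation. At D12, 7 of the 9 genes passed the test against naive at 3 months, 8 at 9 months and 7 at 18 months (edgeR quasi-likelihood test, Benjamini-Hochberg adjusted p under 0.05 over 13584 genes). Of all genes tested, 16.6%, 18.4% and 15.6% passed in the same comparisons. *Stat2*, *Irf1*, *Irf7*, *Batf2* and *Socs3* rose at every age, *Irf5* fell at every age, *Stat3* rose at 3 and 9 months, *Socs1* rose at 9 and 18 months, and *Irf9* did not pass at any age. The median log2 fold change of the 9 genes was 1.89, 2.22 and 2.28 at 3, 9 and 18 months, beside medians of 0.00, 0.06 and 0.03 over all genes. In a stricter test for a change beyond 2-fold, 4, 6 and 6 members passed, with 3.35%, 4.14% and 3.26% of all genes.

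*Stat2*, the STAT particular to the type I interferon complex, rose at D12 at all 3 ages. At 3 months it was at 12.0 to 33.7 CPM (median 23.7) in 7 naive libraries and at 66.2 to 165 CPM (median 124) in 8 D12 libraries. The groups did not overlap, and the log2 fold change was 2.50 (SE 0.36, edgeR adjusted p = 3.12e-07). The 5 naive libraries at 9 months were at 37.6, 25.6, 36.4, 21.2 and 13.9 CPM, and the 7 D12 libraries at 31.9 to 277 CPM (median 204). Replicate 2 of the 9-month-old males was the lowest of the D12 libraries and lay among the naive ones. The change at 9 months was 2.84 on the log2 scale (SE 0.42, edgeR adjusted p = 9.10e-07). At 18 months, 7 naive libraries ranged from 12.0 to 78.5 CPM (median 21.1) and 7 D12 libraries from 25.3 to 169 CPM (median 137), for a log2 fold change of 2.00 (SE 0.35, edgeR adjusted p = 2.82e-05). Here the groups overlapped at both ends. Female D12 replicates 1 and 2 had 25.7 and 25.3 CPM, and naive female replicate 1 had 78.5 CPM.

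*Irf9*, the DNA-binding subunit that joins STAT2 in ISGF3, did not pass at any age. Its median was 88.3, 75.7 and 72.1 CPM in naive and 98.1, 102 and 91.1 CPM in D12 libraries at 3, 9 and 18 months, and 2 of 22 D12 libraries lay above every naive library of their age. The log2 fold changes were 0.25 (SE 0.23), 0.21 (SE 0.26) and 0.55 (SE 0.24), with edgeR adjusted p of 0.527, 0.651 and 0.114. Naive female replicate 1 at 18 months stood far below the other naive libraries, at 9.50 CPM beside 44.2 to 101 CPM. Without it, the change at 18 months was 0.31, and without naive female replicate 3 it was 0.75 and passed (edgeR adjusted p = 0.0386). Averaged over the ages it was 0.34 (SE 0.14, edgeR adjusted p = 0.0567). Exons of *Rnf31* overlap those of *Irf9* in the GENCODE annotation, and the strand was not stated to be used in counting.

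*Stat3* changed less than *Stat2*. Its median rose from 42.2 to 68.1 CPM at 3 months (log2 fold change 0.64, SE 0.20, edgeR adjusted p = 0.0224) and from 50.0 to 91.7 CPM at 9 months (0.87, SE 0.23, edgeR adjusted p = 0.00553). At 18 months the medians were 47.5 and 68.9 CPM, and the difference did not pass (0.50, SE 0.21, edgeR adjusted p = 0.0955). Naive and D12 ranges overlapped at each age, and 13 of 22 D12 libraries lay above every naive library of their age. The calls were narrow. Leaving out naive male replicate 2, female D12 replicate 3 or male D12 replicate 1 ended the call at 3 months, with log2 fold changes of 0.59, 0.58 and 0.57, and leaving out naive male replicate 1 ended it at 9 months, with 0.63. Without naive female replicate 2, the difference at 18 months passed, at 0.67.

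*Irf1*, an early and broadly induced activator, rose at each age. Its 7 naive libraries at 3 months lay at 52.8 to 150 CPM (median 68.6) and the 8 D12 libraries at 203 to 486 CPM (median 315), with no overlap. The log2 fold change was 1.99 (SE 0.29, edgeR adjusted p = 6.70e-07). At 9 months the naive libraries were at 93.0, 88.1, 67.8, 68.8 and 152 CPM and the D12 libraries at 190 to 687 CPM (median 379), again without overlap, and the log2 fold change was 2.09 (SE 0.34, edgeR adjusted p = 7.02e-06). At 18 months the naive libraries lay at 31.0 to 99.1 CPM (median 63.6) and those of D12 at 75.4 to 637 CPM (median 449), for a log2 fold change of 2.62 (SE 0.31, edgeR adjusted p = 5.44e-09). Female D12 replicates 1 and 2, at 95.0 and 75.4 CPM, lay within the naive range at that age. In all, 20 of 22 D12 libraries were above every naive library of their age.

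*Irf7*, the factor that drives interferon alpha genes, rose at each age, with a wide spread between libraries. At 3 months it was at 7.24 to 73.7 CPM (median 21.0) in naive and 42.9 to 200 CPM (median 84.7) in D12 libraries (log2 fold change 2.11, SE 0.45, edgeR adjusted p = 0.000423). Among D12 females, replicate 2 stood at 200 CPM and the other 3 libraries at 42.9 to 51.2 CPM, within the naive range. At 9 months the naive libraries were at 44.8, 27.0, 51.7, 21.8 and 45.4 CPM and the D12 libraries at 17.2 to 582 CPM (median 134), with a log2 fold change of 2.22 (SE 0.52, edgeR adjusted p = 0.00149). Both extremes came from males: replicate 1 at 582 CPM and replicate 2 at 17.2 CPM, below every naive library. Without replicate 1 the change was 1.68. At 18 months the ranges were 8.99 to 42.5 CPM (median 20.4) and 44.1 to 385 CPM (median 179), which did not overlap, and the log2 fold change was 3.03 (SE 0.48, edgeR adjusted p = 3.26e-06). Exons of *Phrf1* overlap those of *Irf7*, as do exons of *Stat5a* those of *Stat3*, of *Gm17334* those of *Irf1* and of *Tnpo3* those of *Irf5*.

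*Irf5*, which relays Toll-like receptor signals, was the one member that fell. The medians in naive and D12 libraries were 217 and 143 CPM at 3 months, 259 and 119 CPM at 9 months, and 237 and 143 CPM at 18 months. The log2 fold changes were −0.60 (SE 0.17), −0.87 (SE 0.19) and −0.59 (SE 0.18), with edgeR adjusted p of 0.00917, 0.000837 and 0.0174. In 18 of 22 D12 libraries the level was below every naive library of the same age. The sum of microglia markers was lower at D12 as well, as given above, and whether *Irf5* fell with it was not tested. Leaving out naive female replicate 4 at 3 months, naive male replicate 2 at 9 months or male D12 replicate 3 at 18 months ended the call of that age, with log2 fold changes of −0.48, −0.62 and −0.52.

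*Batf2* had the largest fold change of the 9 genes at each age, from a naive level near the limit of detection. Of 19 naive libraries, 6 held 3 or fewer *Batf2* counts. At 3 months it rose from 0.217 to 3.90 CPM (median 1.31) in naive libraries to 14.3 to 30.8 CPM (median 18.8) at D12, a log2 fold change of 3.75 (SE 0.49, edgeR adjusted p = 4.42e-08). The naive libraries of 9-month-old mice had 0, 0.605, 1.45, 2.04 and 1.58 CPM, and those of D12 10.4 to 54.4 CPM (median 35.6), for a log2 fold change of 5.05 (SE 0.61, edgeR adjusted p = 7.99e-09). Naive and D12 libraries were apart at both ages. In 18-month-old mice the ranges were 0.746 to 9.50 CPM (median 1.14) and 3.67 to 48.2 CPM (median 34.3), with a log2 fold change of 3.61 (SE 0.47, edgeR adjusted p = 7.63e-08). Naive female replicate 1 held the highest naive value, 9.50 CPM, and female D12 replicates 1 and 2 the lowest at D12, 3.67 and 4.99 CPM. Without that naive library the change was 4.33. Exons of *Arl2* overlap those of *Batf2*.

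*Socs1*, the inhibitor of interferon receptors, rose at 9 and 18 months. At 9 months the naive libraries were at 5.92, 5.24, 1.93, 5.90 and 7.33 CPM and the D12 libraries at 6.27 to 119 CPM (median 87.7), a log2 fold change of 3.61 (SE 0.63, edgeR adjusted p = 1.99e-05). Male replicate 2, at 6.27 CPM, was the D12 library within the naive range. In 18-month-old mice the levels were 5.49 to 34.7 CPM (median 8.29) and 2.10 to 191 CPM (median 101), for a log2 fold change of 3.01 (SE 0.52, edgeR adjusted p = 1.98e-05). Female D12 replicates 1 and 2 had 2.10 and 5.75 CPM, the first below every naive library and the second within their range, while replicates 3 and 4 had 181 and 101 CPM. At 3 months the naive libraries lay at 5.21 to 10.7 CPM (median 9.16) and the D12 libraries at 4.97 to 56.6 CPM (median 20.1). The change there was 1.32 (SE 0.50) and just missed the threshold (edgeR adjusted p = 0.0562), and it passed with DESeq2 (adjusted p = 0.0281) and without female D12 replicate 3 (1.47) or male D12 replicate 3 (1.41). The 4 male libraries of D12, at 23.6 to 56.6 CPM, were all above the 4 female ones, at 4.97 to 16.6 CPM. The sex difference in the *Socs1* change did not pass, as no member did in the test given below. Of these males 3, and of these females 1, came from the first collection day, so that sex and day are in part confounded here.

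*Socs3*, the inhibitor of gp130 cytokine receptors and a STAT3 target, rose at each age. At 3 months it was at 1.63 to 8.38 CPM (median 4.02) in naive and 9.40 to 25.8 CPM (median 17.5) in D12 libraries, without overlap (log2 fold change 1.89, SE 0.46, edgeR adjusted p = 0.00212). At 9 months the naive libraries were at 7.82, 4.03, 5.31, 1.63 and 5.03 CPM and the D12 libraries at 20.4 to 174 CPM (median 32.0), again apart, with a log2 fold change of 3.91 (SE 0.58, edgeR adjusted p = 9.86e-07). Male replicate 1 was the highest, at 174 CPM, and without it the change was 3.31. The 18-month ranges were 1.18 to 14.0 CPM (median 7.49) and 8.25 to 70.2 CPM (median 28.8), for a log2 fold change of 2.28 (SE 0.47, edgeR adjusted p = 0.000283). In 21 of 22 D12 libraries *Socs3* was above every naive library of the same age, the exception being female replicate 2 at 18 months.

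**Figure D2:**
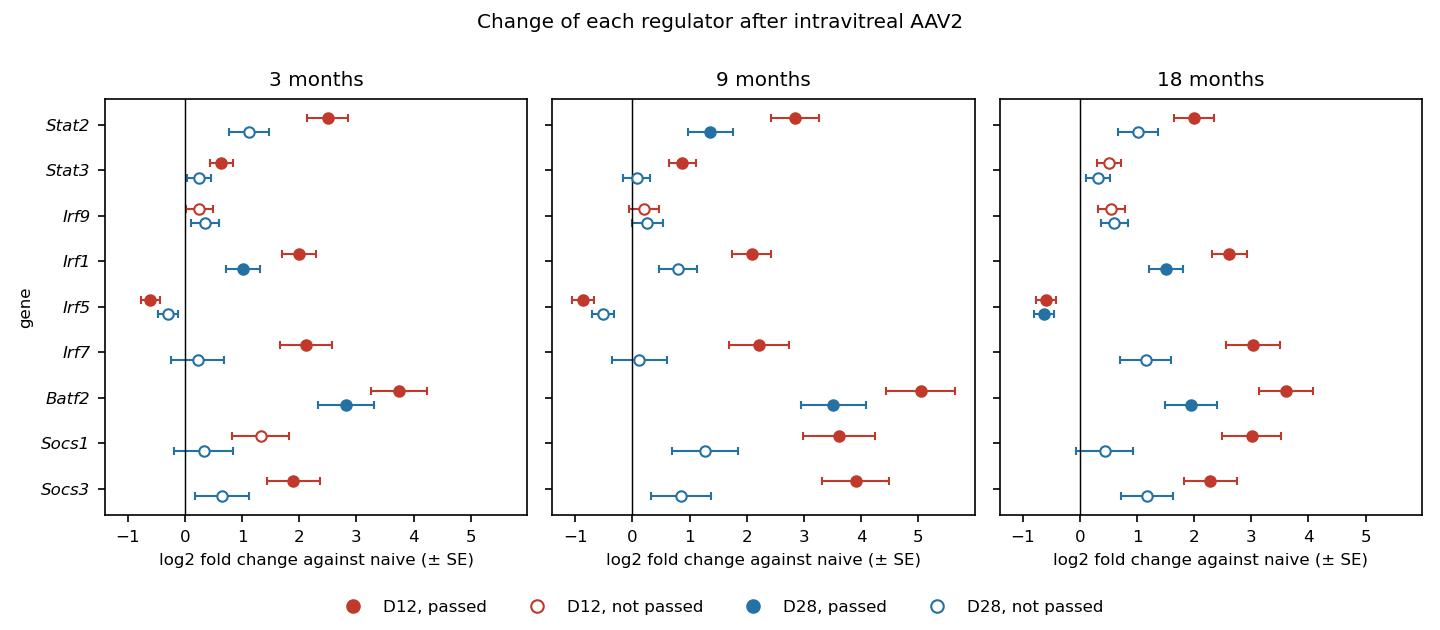
Log2 fold change against naive of each gene at D12 (red) and D28 (blue), with bars of 1 SE, in one panel per age; filled points passed an adjusted p of 0.05. *Batf2* lies farthest to the right at D12, at 3.75, 5.05 and 3.61, *Irf5* lies to the left of 0, and *Irf9*, at 0.25, 0.21 and 0.55, did not pass.

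The second question was which regulators were still changed at D28, measured against the same naive libraries. At that day 2 of the 9 genes passed at 3 months, 2 at 9 months and 3 at 18 months, where 2.78%, 4% and 4.82% of all genes passed. *Batf2* was the member called at all 3 ages. Its median was 9.71, 13.0 and 7.71 CPM, and the log2 fold changes were 2.82 (SE 0.49), 3.51 (SE 0.57) and 1.95 (SE 0.46), with edgeR adjusted p of 9.98e-05, 5.47e-05 and 0.0048. At 3 and 9 months every D28 library was above every naive one. At 18 months the ranges of 3.42 to 16.5 CPM and 0.746 to 9.50 CPM overlapped, and without naive female replicate 1 the change was 2.68.

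*Irf1* was still higher at D28 at 3 and 18 months. Its D28 libraries lay at 109 to 190 CPM (median 177) at 3 months, overlapping the naive ones, and at 124 to 257 CPM (median 174) at 18 months, above every naive library. The log2 fold changes were 1.02 (SE 0.29, edgeR adjusted p = 0.0413) and 1.51 (SE 0.30, edgeR adjusted p = 0.000555). The first of these lost its call without any one of 6 naive or 5 D28 libraries, with values of 0.94 to 1.12. At 9 months the change was 0.80 (SE 0.33, edgeR adjusted p = 0.162).

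For *Stat2*, the D28 medians were 44.5, 53.4 and 54.4 CPM at 3, 9 and 18 months. Its log2 fold changes were 1.12 (SE 0.35), 1.36 (SE 0.39) and 1.02 (SE 0.35), and passed at 9 months (edgeR adjusted p = 0.0704, 0.0323 and 0.0744). At 3 months the D28 libraries, at 35.9 to 54.8 CPM, did not overlap the naive ones. Leaving out any one of 6 libraries ended the call at 9 months, with values from 1.18 to 1.53, and without naive female replicate 1 the comparison at 18 months passed, at 1.45.

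*Irf5* was lower at D28 at 18 months, with a median of 149 CPM (log2 fold change −0.63, SE 0.18, edgeR adjusted p = 0.0257), and any one of 6 libraries left out ended that call. *Irf7*, *Socs1*, *Socs3*, *Stat3* and *Irf9* passed at no age at D28. *Irf7* had a median of 27.3, 35.2 and 43.0 CPM, and *Socs1* of 10.4, 13.9 and 12.4 CPM. Beyond 2-fold, *Batf2* alone passed at 3 and 9 months and no member at 18 months, where 2 members had an unadjusted p under 0.05; 0.493%, 0.582% and 0.78% of all genes passed. Averaged over the 3 ages, 8 members passed at D12, where 36% of all genes did, and 6 at D28, where 15.5% did. The 6 were *Stat2* (1.17, SE 0.21), *Irf9* (0.41, SE 0.14), *Irf1* (1.11, SE 0.18), *Batf2* (2.76, SE 0.29), *Socs3* (0.89, SE 0.28) and *Irf5* (−0.48, SE 0.11).

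From D12 to D28, 3 members fell at 3 months, 7 at 9 months and 4 at 18 months, where 1.44%, 5.21% and 2.32% of all genes did. *Irf1* and *Irf7* fell at each age. *Irf7* changed by −1.89 (SE 0.45), −2.10 (SE 0.45) and −1.88 (SE 0.45) on the log2 scale (edgeR adjusted p = 0.00941, 0.00146 and 0.0111), and *Irf1* by −0.97 (SE 0.28), −1.29 (SE 0.29) and −1.11 (SE 0.29; edgeR adjusted p = 0.0429, 0.00241 and 0.0208). The largest fall was that of *Socs3* at 9 months, at −3.06 on the log2 scale (SE 0.48, edgeR adjusted p = 1.57e-05). *Socs1* changed by −2.34 (SE 0.51, edgeR adjusted p = 0.00145) at 9 months and by −2.57 (SE 0.51, edgeR adjusted p = 0.002) at 18 months. *Batf2* fell at 9 and 18 months, with values of −1.53 (SE 0.42, edgeR adjusted p = 0.0121) and −1.66 (SE 0.42, edgeR adjusted p = 0.018), and *Stat2* at 3 and 9 months, with −1.38 (SE 0.34, edgeR adjusted p = 0.0119) and −1.47 (SE 0.34, edgeR adjusted p = 0.00327). *Irf9* and *Irf5* did not pass at any age, with *Irf9* at 0.10, 0.05 and 0.05. At 3 months the call of *Irf7* was lost without female D12 replicate 2 (−1.47), that of *Stat2* without male D28 replicate 3 (−1.34) and that of *Irf1* without any one of 10 libraries (−0.99 to −0.90). At 9 months that of *Stat3* was lost without female D12 replicate 3, male D12 replicate 1 or male D28 replicate 3 (−0.68, −0.63 and −0.67). At 18 months *Irf1*, *Irf7* and *Batf2* lost theirs without female D12 replicate 4 (−1.07, −1.48 and −1.51) or female D28 replicate 2 (−1.04, −1.73 and −1.49). *Irf1* and *Batf2* lost them also without female D12 replicate 3 (−0.75 and −1.36) or male D12 replicate 2 (−1.04 and −1.59), and *Irf1* without female D28 replicate 3 (−1.14) or male D28 replicate 1 (−1.04). *Stat2* passed at 18 months without female D12 replicate 1 or 2 (−1.12 and −1.13).

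**Figure D3:**
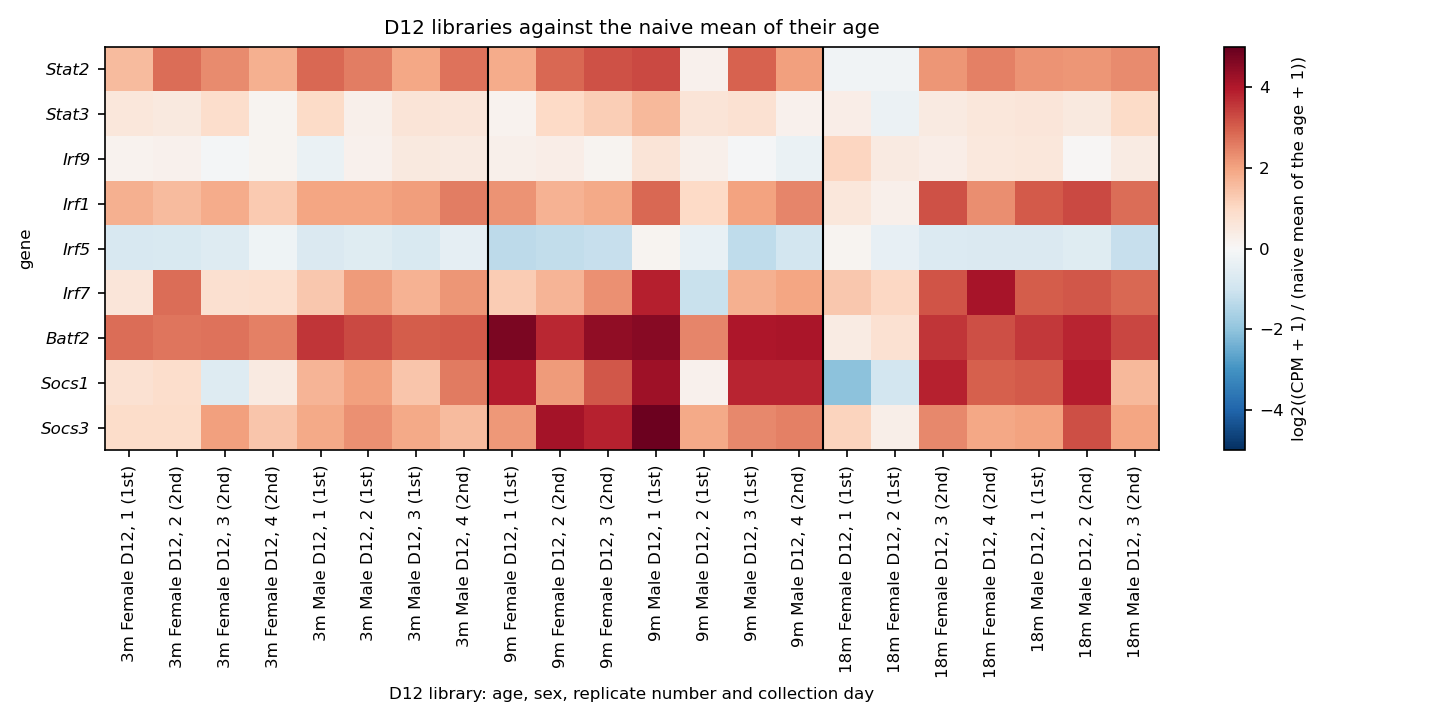
Each of the 22 D12 libraries (x axis, with age, sex, replicate number and collection day) against the naive mean of its age, as log2((CPM + 1)/(naive mean + 1)), for the 9 genes (y axis). The 2 first-day libraries of 18-month-old females and male replicate 2 at 9 months are pale across most genes, with *Socs1* below the naive mean in the former.

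The D12 libraries did not all carry these changes. For the 6 genes *Stat2*, *Irf1*, *Irf7*, *Batf2*, *Socs1* and *Socs3*, chosen because they rose, 15 of the 22 D12 libraries had all 6 above every naive library of their age. Female replicates 1 and 2 at 18 months had 2 and 1 of the 6, and male replicate 2 at 9 months had 3. In these 3 libraries the T cell marker sums were 1.57, 15.3 and 122 CPM and the monocyte marker sums 13.6, 24.0 and 28.2 CPM. Their microglia marker sums were 36530, 31620 and 29970 CPM, the 3 highest at D12. At 3 months, female replicates 1 and 4 and male replicate 1 had 5 of the 6, and female replicate 3 had 4. Low T cell or monocyte sums were found in other libraries too. Female replicate 4 at 3 months had 77.0 and 23.2 CPM. Male replicate 4 at 9 months, with all 6 genes above, had 61.1 and 128 CPM. The 2 aged females were both collected on the first collection day, and replicates 3 and 4, collected on the second, had all 6 genes above the naive range, T cell sums of 484 and 235 CPM and microglia sums of 15160 and 15330 CPM. Among the 18-month-old D12 females, library and collection day therefore cannot be told apart.

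All 18 groups held libraries of both collection days, 27 in all from the first and 35 from the second, some with 1 library on a day. At D12 the sexes were uneven over the days. Females had 1 first-day and 3 second-day libraries at 3 months and 1 and 2 at 9 months. Males had 3 and 1 at both ages. The comparison was repeated within each day. The direction of the D12 change was the same as in the pooled fit for 9 of 9 members within either day at 3 months, for 9 on the first and 8 on the second at 9 months, and for 9 on either day at 18 months. The exception was *Irf9* at 9 months, at 0.51 and −0.19. For D28 the counts were 9 and 9 at 3 months, 9 and 7 at 9 months and 8 and 9 at 18 months. The libraries of each day are part of the pooled fit, so that agreement with it is in part built in. The share of all genes that kept their direction is not given. The D12 sizes at 18 months were unlike between the days. *Stat2* was at 0.49 on the first day and 2.99 on the second (edgeR adjusted p = 2.13e-09). *Irf7* was at 1.70 and 3.81, *Batf2* at 1.66 and 5.06, *Socs1* at 0.37 and 4.06, *Socs3* at 1.28 and 2.84, and *Irf1* at 2.04 and 3.13. *Irf9* was larger on the first day, at 1.87 and 0.36, and at 1.62 and 0.66 at D28. On the first day at 18 months the naive females and the D12 males were 1 library each. The naive one, female replicate 1, had 78.5 CPM of *Stat2* and 9.50 of *Irf9*. The D12 one, male replicate 1, had all 6 of the genes chosen because they rose above every naive library. The median over all genes was 0.36 on the first day and 0 on the second at 18 months, so that the first-day values are to be read against that shift. At 3 and 9 months, *Stat2* was at 2.62 and 2.39, and at 2.26 and 2.95, on the first and second day, and *Irf1* at 1.90 and 2.18, and at 2.48 and 1.93. *Batf2* was at 3.64 and 3.81 at 3 months and at 4.81 on the second day at 9 months. On the first day at 9 months its naive libraries were 1 female at 0 CPM and 1 male at 2.04 CPM, so that no size is given there. At D28, *Batf2* was at 2.44 and 3.11 at 3 months, 3.41 on the second day at 9 months and 0.30 and 3.34 at 18 months, and *Irf1* at 0.95 and 1.04, 0.99 and 0.52, and 1.51 and 1.79.

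Whether the sexes differed in their D12 change was tested as an interaction. At 3 and 9 months the D12 males came mostly from the first collection day and the D12 females mostly from the second. No member passed an adjusted p of 0.1 at 3, 9 or 18 months with edgeR or DESeq2, and 2, 1 and 3 members had an unadjusted p under 0.05. Over all genes, 0%, 0.00736% and 0% passed. At 3 months the male change exceeded the female one by 2.02 (SE 0.88) for *Irf7* and 1.13 (SE 0.56) for *Irf1* on the log2 scale (edgeR adjusted p = 0.872 and 0.875). At 9 months the excess for *Irf5* was 0.81 (SE 0.40, edgeR adjusted p = 0.736), and without naive male replicate 1 or 2 it was 0.45 or 1.28. At 18 months it was 2.37 (SE 0.89) for *Batf2*, 1.73 (SE 0.68) for *Stat2* and 1.86 (SE 0.90) for *Socs3* (edgeR adjusted p = 0.44, 0.465 and 0.581), with the 2 first-day females described above in the female group. Without naive female replicate 1 they were 0.91 for *Batf2* and 0.88 for *Stat2*. In naive microglia no member differed between the sexes at that threshold with either tool, while 0.081% of all genes did. The male against female log2 fold change was −0.80 (SE 0.31) for *Stat2* and −0.84 (SE 0.40) for *Irf7*, with unadjusted p of 0.0117 and 0.0395 and edgeR adjusted p of 0.52 and 0.624, and without naive female replicate 1 at 18 months that of *Stat2* was −0.52.

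Age was tested in the same way. No member passed for a different change at 9 or 18 against 3 months, at D12 or D28, with either tool, and 2 members, 1 member and then none had an unadjusted p under 0.05. Of all genes, 0.0368% and 0.155% passed at D12 and 0% and 0% at D28. The *Socs1* change at D12 was larger by 2.29 at 9 months (SE 0.75, edgeR adjusted p = 0.484) and by 1.68 at 18 months (SE 0.69, edgeR adjusted p = 0.327) than at 3 months. The *Socs3* change was larger by 2.01 at 9 months (SE 0.68, edgeR adjusted p = 0.506). In naive microglia of 18- against 3-month-old mice no member passed or had an unadjusted p under 0.05, and 0.11% of all genes passed. The largest such difference among the members was that of *Batf2*, at 0.70 (SE 0.52), and the smallest that of *Irf5*, at 0.01 (SE 0.18).

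**Figure D4:**
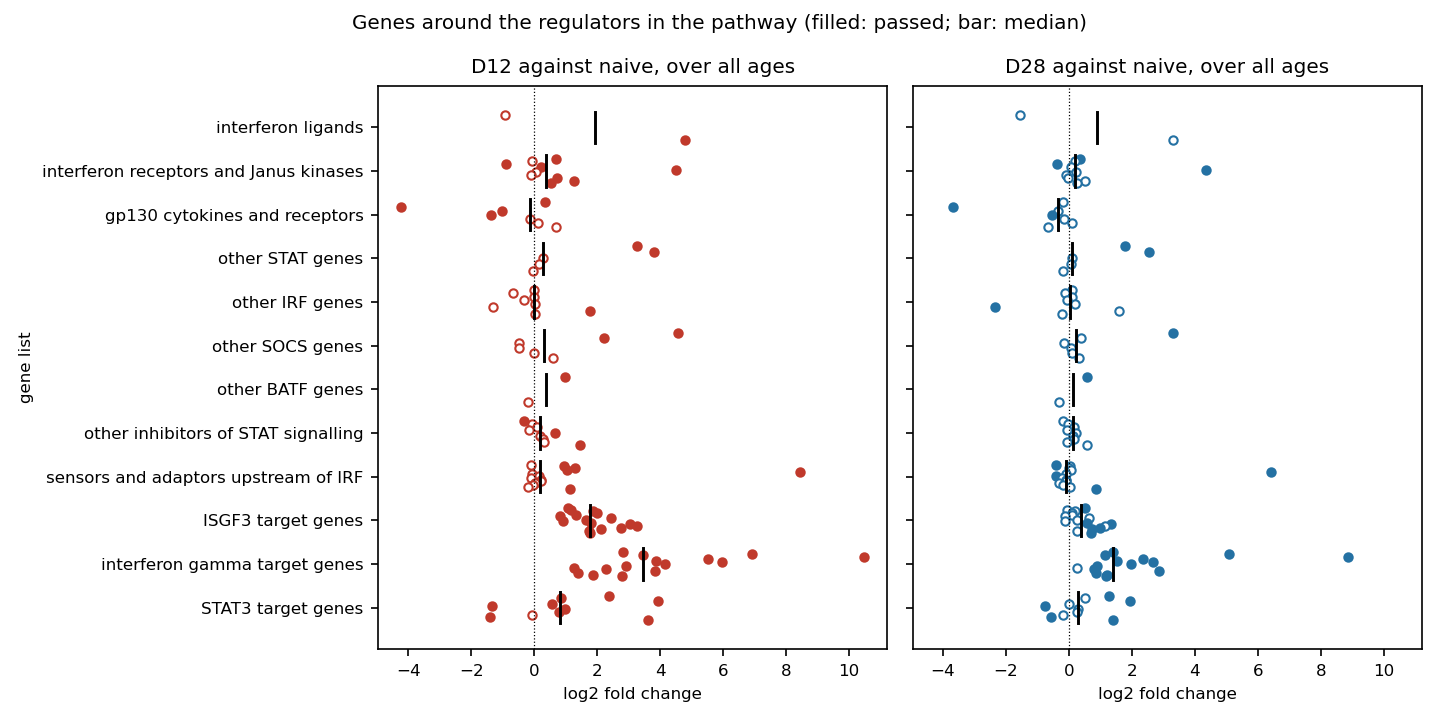
Log2 fold change over all ages of genes placed around the 9 regulators in the pathway, by list (y axis), at D12 (left) and D28 (right). Each point is a gene, filled where it passed an adjusted p of 0.05, and bars are the list medians; the interferon gamma targets have medians of 3.47 and 1.39 and the ISGF3 targets of 1.77 and 0.39. The open points of *Ifng* at D28 and of *Osmr* had no usable test.

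Genes around the members were then taken with all ages together. Of all genes, 20.2% rose and 15.8% fell at D12, and 9% rose and 6.52% fell at D28, with a median log2 fold change of 0.02 at both days. Among the other STAT genes, *Stat4*, which relays IL-12 in T and NK cells, changed by 3.79 and 2.56, from 0.679 to 8.24 and 4.02 CPM, and the sums of T and NK cell markers given above moved with the day as well; their part was not tested. *Stat5a* was at 0.27 (SE 0.26) at D12.

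Among the other IRF genes, a list that also held genes of IRF2 partners, the median log2 fold change at D12 was −0.02. *Irf2bp1* and *Irf2bpl*, which encode partners of IRF2, were at −0.66 and −0.33 and did not pass. At D28, 1 gene of the list was lower, *Irf4* (−2.36, edgeR adjusted p = 0.013), which is named after its values were seen. Among 6 other SOCS genes, *Cish* (4.55, SE 0.87) and *Socs2* (2.23, SE 0.58) rose at D12, each from under 1 CPM on average, and *Socs7* was at 0.61 (SE 0.29, edgeR adjusted p = 0.101). *Batf*, a partner of IRF4 and IRF8, rose by 0.97 (SE 0.16) and *Batf3* was at −0.20 (SE 0.15). Of 9 other inhibitors of STAT signalling, 2 rose and 1 fell at D12, and none passed at D28. They were *Usp18*, the brake on the type I receptor (1.47, SE 0.22), the phosphatase gene *Ptpn1* (0.67, SE 0.11) and *Pias1* (−0.33, SE 0.13).

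Upstream, 2 of 9 interferon ligand genes had enough counts to be tested. *Ifng* rose at D12 (4.79, SE 0.96, edgeR adjusted p = 7.91e-05), from 0.245 to 3.32 CPM on average, with reads in 3 of 19 naive and 15 of 22 D12 libraries. At D28 it averaged 3.53 CPM, with reads in 10 of 21 libraries. There edgeR gave no usable test, since naive and D28 groups without any reads stood on both sides of the average over ages. DESeq2 called it at D28 (3.21, adjusted p = 0.0296). At D12, *Ifnb1* was at −0.94 (SE 0.71). Of 10 interferon receptor and Janus kinase genes, 6 rose and 1 fell at D12, and 2 rose and 1 fell at D28. *Ifngr1*, the ligand-binding chain of the interferon gamma receptor, changed by −0.89 (SE 0.13) at D12, while *Ifnar1* rose by 0.69 (SE 0.12) and *Jak3* by 1.28 (SE 0.25).

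Downstream, all 16 ISGF3 target genes rose at D12, with a median of 1.77, and 6 of them passed at D28, with a median of 0.39. *Oas2* (3.04, SE 0.29), *Oasl2* (2.13, SE 0.22) and *Oas1a* (1.79, SE 0.20), which make the antiviral oligoadenylate signal or belong to that family, had the smallest p. All 15 interferon gamma target genes rose at D12, with a median of 3.47, and 14 were higher at D28, with a median of 1.39. They were led by *Cxcl9* (10.48 and 8.85 at D12 and D28), *Nlrc5*, the activator of MHC class I genes (3.82 and 2.88), and *Gbp3* (3.87 and 1.52). *Ifng*, *Cish* and *Cxcl9* had no reads in 4, 3 and 1 of 6 naive groups, so that their fitted sizes depend on the prior count. Of 10 STAT3 target genes, 7 rose and 2 fell at D12, with a median of 0.81, and 3 rose and 2 fell at D28. *Ccl2* (3.92, SE 0.40) and *Pim1* (3.62, SE 0.44) rose and *Cebpd* (−1.33, SE 0.14) fell. D12 and D28 share their naive libraries, so that the values of the days are not independent of each other.

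Over the 18 group means of log2 CPM, the members followed each other to different degrees. The Spearman correlation was 0.932 between *Stat2* and *Socs3*, 0.926 between *Stat2* and *Batf2* and 0.915 between *Socs1* and *Socs3*. It was −0.88 between *Stat2* and *Irf5*, and *Irf9* reached at most 0.546, with *Batf2*. The genes outside the set most like each member were *Tap1* (0.984), *Mmp14* and *Sdc3* for *Stat2*, *Glrx* (0.977), *Cd72* and *Irgm1* for *Irf1*, and *Mbd2* (0.975), *Herc6* and *Samhd1* for *Irf7*. For *Batf2* they were *Slc2a6* (0.959), *Sp140* and *Gm4841*, for *Socs1* *Usp18* (0.93), *Ccl2* and *Ldha*, and for *Socs3* *Ifi206* (0.981), *Ifi205* and *Ifi207*. Among the nearest to *Stat3* were *Ptgs2* and *2210414B05Rik*, and *Irf5* was nearest to *Klf7* (0.955), *Gna15* and *Nfam1*. The nearest to *Irf9* were *AU040320*, *Ddx10* (0.773 each) and *Spata7*. These correlations describe 18 means that share the same 3 days of sampling and the same libraries for every gene.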

How the data were processed

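Bulk RNA-seq counts of sorted retinal microglia were used as deposited. The authors demultiplexed with bcl2fastq 2.20, aligned single-end reads to mm10 with STAR 2.7.8a, counted reads per gene with featureCounts and removed the collection day with ComBat_seq, so that the deposited counts are whole numbers already adjusted for that day. Counts before this correction served as an alternative. Group, sex, age, day and replicate came from the labels. All 62 libraries entered 1 quasi-likelihood fit in edgeR 4.0.16 (R 4.3.3) with TMM scaling, filterByExpr and 18 group means. Contrasts average the sexes, p-values were adjusted by Benjamini-Hochberg over 13584 genes, and calls used 0.05 for days and 0.1 for differences of sex and age. CPM are relative to TMM-scaled library sizes. Changes beyond 2-fold were tested with glmTreat, and DESeq2 1.42.0 was an alternative. Data were simulated for D12 against naive at 3 months (12561 genes in this step), with 100 genes changed by 1 and 100 by 2 on the log2 scale. Of these, 37% and 80% were recovered, with 7 false calls. In the real comparison 2261 genes passed, so that recovery there can differ from that of the simulation. Named genes are the 9 members, the 3 genes of smallest p at D12 in each pathway list, and the 3 genes most like each member, except some that are not reported here. Members and lists were chosen with earlier results of these data known. Positions refer to GRCm38, the same assembly as mm10.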

Additional observations from a re-analysis of the deposited data

Results flagged for a closer look

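Among 81 groups of 4 libraries, 1 for each gene and group, 5 held a library far from the other 3, where chance gives about 5% of groups. *Stat3* was at 66.6 CPM in naive female replicate 4 at 3 months, beside 41.2 to 45.4 CPM. *Irf9* was at 55.4 CPM in female D28 replicate 3 at 9 months, where the lowest of the others had 92.6 CPM. *Irf7* was at 199.9 CPM in female D12 replicate 2 at 3 months, beside 42.9 to 51.2 CPM. *Socs1* was at 36.0 CPM in male D28 replicate 4 at 18 months, beside 10.5 to 13.5 CPM; this is the library with different days in its title and its time point. *Socs3* was at 173.7 CPM in male D12 replicate 1 at 9 months, beside 20.4 to 32.0 CPM.

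The remaining values come from 2 libraries outside the comparisons, both against their sex label, and lay above every naive library of the labelled age. The library labelled female D28 replicate 1 at 18 months had 154.4 CPM of *Stat2*, 120.6 of *Stat3*, 422.2 of *Irf1*, 175 of *Irf7*, 40.0 of *Batf2*, 82.2 of *Socs1* and 32.8 of *Socs3*, where the highest naive values were 78.5, 67.3, 99.1, 42.5, 9.50, 34.7 and 14.0 CPM. The library labelled male D28 replicate 1 at 9 months, in the uncorrected counts, had 58.9 CPM of *Stat2*, 99.98 of *Irf9*, 162 of *Irf1*, 16.7 of *Batf2* and 18.5 of *Socs1*, where the highest naive values were 36.0, 93.4, 119.5, 2.24 and 7.17 CPM.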

How the results depend on the processing

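Counts below are of the 9 genes called. The share of all genes called under each alternative is not given here, so that these counts are not read as results about the members. Leaving out 1 library at a time gave 6 to 8, 7 to 8 and 6 to 8 at D12 against naive (3, 9 and 18 months), 1 to 2, 1 to 2 and 2 to 3 at D28, 3 to 4, 4 to 6 and 4 to 6 beyond 2-fold at D12, and 0 to 1, 1 and 0 to 1 beyond 2-fold at D28. From D12 to D28 it gave 1 to 3, 6 to 7 and 1 to 5, for each difference of sex or age 0, and over all ages 8 to 9 at D12 and 4 to 6 at D28. The replicate numbers did not pair libraries: deviations from the group means had a mean correlation of −0.0148 between libraries of the same number and 0.00511 between others, and with a replicate block the count at D28 and 3 months was 1, where *Irf1* (1.02) had an edgeR adjusted p of 0.0505. Without the filter on low counts, D28 gave 4 at 9 months and 5 at 18 months, D28 against D12 gave 5 at 3 months, the sex difference 1 at 3 and 2 at 18 months, naive sexes 2, and the age difference at D12 2 (9 months) and 1 (18 months). In that fit *Stat2* at D28 and 3 months passed at 1.13 (edgeR adjusted p = 7.28e-05). With the filter its log2 fold change was 1.12 and did not pass, so that the call moved with hardly any change in size. Uncorrected counts with no batch term gave 1 at D28 at 3 and at 9 months and 1 for D28 against D12 at 18 months. With the mislabelled 18-month library kept, D28 gave 1 at 3 months, 5 at 18 months and 1 beyond 2-fold there, and D28 against D12 at 18 months 0. With each age fitted on its own, D28 gave 1 at 9 months, and D28 against D12 gave 5 and 1 at 3 and 18 months. DESeq2 called 1 interferon ligand at D28, *Ifng*, where edgeR called 0 and had no usable test of it. The first collection day alone, chosen after seeing the data, left 1 library in some groups at every age, so that its counts of calls are not given. The second day alone, also added later, gave 2 beyond 2-fold at D28 at 18 months. The second day holds more libraries than the first, and the cause of its difference from the pooled fit was not tested.

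Values that changed sign were uncalled in both fits. *Irf9* at D12 and 9 months was −0.19 on the second day. At D28 and 9 months, *Stat3* was −0.0375 and −0.0485 in uncorrected counts with and without the day as a term and −0.22 on the second day (−0.16 to 0.44 leaving out 1 library), and *Irf7* −0.0924 with the replicate block and −0.0733 on the second day (−0.33 to 0.45). *Socs1* at D28 and 18 months was −0.57 on the first day. From D12 to D28, *Irf9* was −0.0166 on the second day at 3 months (−0.0514 to 0.17), −0.0324 in uncorrected counts with no batch term and −0.11 on the first day at 9 months (−0.0238 to 0.15), and at 18 months −0.0144 and −0.0411 in uncorrected counts with and without the day, −0.10 with male replicate 4 placed at D12 and −0.24 on the first day (−0.0125 to 0.15). *Irf5* from D12 to D28 at 18 months was 0.14 on the second day (−0.11 to 0.0721). The sex difference of *Irf5* at 9 months was −0.18 on the second day, and the age difference of *Socs1* at 18 months −0.95 on the first. Depth limits *Batf2* most, with 6 of 19 naive libraries at 3 or fewer counts.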

Other observations

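Sensors and adaptors upstream of the IRF proteins had 14 of 17 listed genes in the tests, of which 5 rose at D12 over all ages, and 2 rose and 2 fell at D28, where 9% and 6.52% of all genes rose and fell (20.2% and 15.8% at D12). *Ikbke*, a kinase that phosphorylates IRF proteins, changed by 8.46 (SE 0.65) at D12 and 6.41 at D28, from 0.327 to 46.0 and 11.8 CPM on average. It had no reads in 3 of 6 naive groups, so that these fitted sizes depend on the prior count. The RNA sensor genes *Ddx58* (0.94, SE 0.14) and *Ifih1* (1.05, SE 0.15) rose at D12 and were at 0.03 and 0.07 at D28, where they did not pass.

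Of 7 genes of gp130 cytokines, IL-10 and their receptors that were tested, 1 rose and 3 fell at D12, and 2 fell at D28, beside 15.8% of all genes that fell at D12 and 6.52% at D28. For *Osmr*, without reads in groups on both sides, edgeR gave no usable test at either day. *Il6* fell from 21.3 to 1.61 CPM on average (−4.22, SE 0.49), *Il6st*, which encodes gp130, from 136 to 54.9 CPM (−1.37, SE 0.16) and *Il6ra* from 94.1 to 50.0 CPM (−1.04, SE 0.16), while *Socs3* rose. The sum of microglia markers was lower at D12 too, and its part was not tested.

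Naive female replicate 1 at 18 months held the highest monocyte marker sum of the naive libraries, 127 CPM, with the next at 45.3 CPM. Its values were 78.5 CPM for *Stat2*, 34.7 for *Socs1* and 9.50 for *Irf9*. The highest T cell sums of the naive libraries, 207 and 116 CPM, were in male replicates 2 and 4 at 18 months. Their NK cell sums, 202 and 203 CPM, were the highest naive ones as well. Naive males of that age had at most 29.6 CPM of *Stat2* and 8.81 of *Socs1*, and at least 44.2 of *Irf9*. The part of these other cells was not tested.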
